A study of Saccharomyces cerevisiae with 12 samples.

Results

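The genes described here encode the budding yeast RNA polymerase II machinery that assembles on promoters: the polymerase's subunits, the general transcription factors other than TFIIH, the TBP-associated factors (TAFs) of TFIID, and Mediator. They were chosen by symbol, as the probe sets whose single gene in the platform's name table was on a list of 58 symbols, out of 5368 genes tested. All 58 had 1 probe set each, and 57 were above the detection floor on every array. The RNA came from Saccharomyces cerevisiae treated with 0.03% methyl methanesulfonate (MMS, an agent that methylates DNA) for 30 minutes or left untreated. The 6 groups, with 2 arrays each, were the C403A mutant with MMS and untreated, the C406A mutant with MMS and untreated, and wild type with MMS and untreated. The labels call both mutants TFIIH mutants without naming the subunit. C403A and C406A are known as cysteine-to-alanine changes in the zinc-binding RING finger of Ssl1, a TFIIH subunit. The sources used here give neither the strain background nor whether the 2 arrays of each group stand for separate cultures, so the p-values speak for the spread among these samples alone.

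As background, a promoter is read when TBP (encoded by SPT15) and the TAFs mark it, TFIIA and TFIIB stabilize TBP, TFIIF brings in the polymerase, and TFIIE recruits TFIIH, which opens the DNA. Mediator joins activators to the polymerase through its head, middle and tail, and a kinase module built of Cdk8, cyclin C and a pair of large subunits binds to it reversibly. Polymerase II also meets damaged bases in transcribed genes, where it stalls and calls repair factors. Several of these subunits belong to more than 1 complex.

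Unless stated otherwise, every value below is a level or a difference of a probe set's quantile-normalized intensity. This intensity has no absolute unit, so levels of different genes were not compared. Log2 changes are differences of log2 intensity, MMS over untreated or mutant over wild type, with the standard error (SE) of the limma fit to all 12 arrays. A gene was called where its p, adjusted over all 5368 genes by Benjamini and Hochberg's method, was under 0.05. The 2 arrays of a group correlated at 0.985 to 0.993 over genes. Array medians as deposited ran from 184 to 310, and their number limits the precision. SSL1 was higher in both mutants, by 1.58 ± 0.08 (C403A) and 1.14 ± 0.08 (C406A) under MMS, and by 1.52 ± 0.08 and 1.06 ± 0.08 in untreated cells. The arrays were scanned strain by strain on 1 day, so strain and scan order cannot be told apart. Within each strain both untreated arrays were scanned before both MMS arrays, so treatment and scan order cannot be told apart either. In the values as deposited, ribosomal RNA probe sets were brightest on array 2 of untreated C403A and array 2 of untreated wild type. The log2 of their mean intensity was 10.8 and 9.35 there, against 5.75 to 8.42 elsewhere.

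With MMS, the polymerase's own subunit genes mostly fell while the factors around it split. Over the mean of the 3 strains, 12 of the 58 genes rose, 15 fell and 31 did not pass, against 47.4% of all genes called (25.2% higher, 22.2% lower). The called share of the 58 genes, 46.6%, was near that background. On 6 genes every MMS array lay below every untreated array, against 7.27% of all genes, and on 2 genes above, against 10% of all genes. The changes were small, between -0.46 for SSN3 and 0.53 for MED8. The median change was -0.06 over the 58 genes and 0.00 over all genes tested. Of the 10 polymerase subunits 1 rose and 7 fell, of the 9 genes of TBP and the general factors 3 rose and 2 fell, and of the 14 TAFs 2 rose and 1 fell. In Mediator, 2 of the 8 head genes rose and 2 fell, 2 of the 9 middle genes rose and 2 fell, 1 of the 4 tail genes rose and none fell, and 1 of the 4 kinase-module genes rose and 1 fell. In this RNA of whole cultures, fewer cells of a type and less RNA per cell cannot be told apart.

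**Figure D1:**
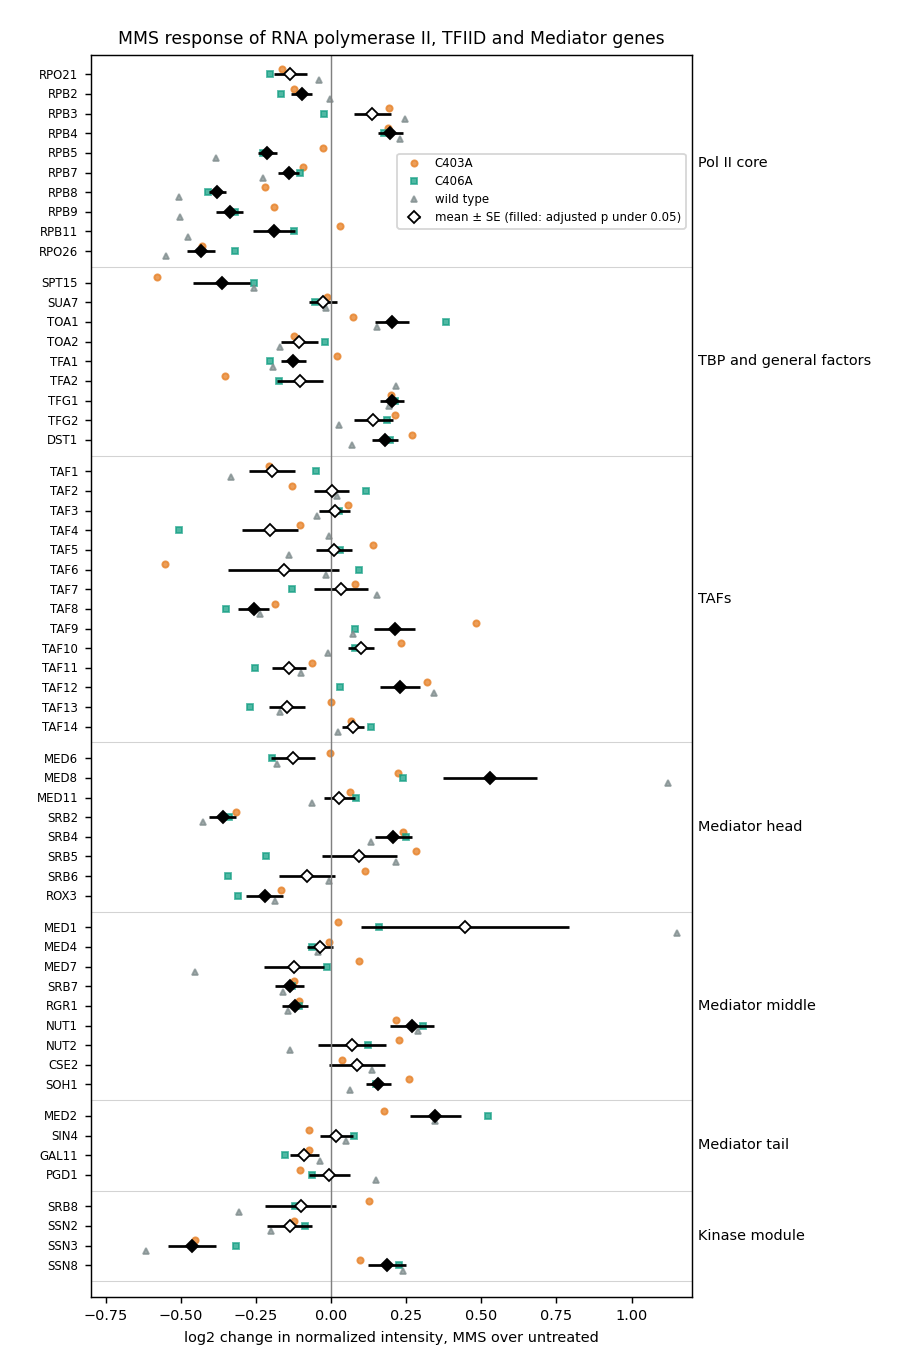
Log2 change in normalized intensity, MMS over untreated, for the 58 genes by role, in C403A (circles), C406A (squares), wild type (triangles) and as the mean of the 3 strains with its SE (diamonds, filled where the adjusted p is under 0.05). Most polymerase subunits lie left of 0, down to -0.43 for RPO26, while the TAFs and the Mediator genes fall on both sides.

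Within single strains fewer genes passed. In C403A 3 rose and 4 fell, against 15.6% of all genes called (8.42% higher, 7.13% lower). In C406A 2 rose and 7 fell, against 24% of all genes (12.7% higher, 11.2% lower). In wild type 3 rose and 8 fell, against 33% of all genes (19.1% higher, 13.8% lower). RPB8, RPO26 and SRB2 fell in each of the 3 strains, and RPB5 and RPB9 fell in C406A and wild type. Leaving out each array in turn, 17 of the 27 calls of the mean response held every time, 6 of the 11 wild-type calls (RPB5, RPB8, RPB9, RPO26, SRB2 and SSN3), 1 of the 9 C406A calls (RPB8) and 0 of the 7 C403A calls. The calls of the mean response that were lost without at least 1 array were those of RPB2, RPB11, TFA1, TAF9, TAF12, MED8, SRB4, SRB7, SSN8 and RGR1. These changes are relative to the whole of each array: in the values as deposited the median of all genes was 0.31 higher with MMS, 26 of the 58 genes were called higher and 0 lower.

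The polymerase subunits with the clearest falls were RPB8 and RPO26, which sit in all nuclear RNA polymerases. RPB8 read 2251 and 2368 in C403A with MMS against 2723 and 2661 untreated, 2134 and 2190 in C406A with MMS against 2867 and 2873 untreated, and 2241 and 2186 in wild type with MMS against 3186 and 3109 untreated. Every MMS array was below every untreated array. The mean change was -0.38 ± 0.03 (adjusted p = 5.85e-06), 0.769 of the untreated level, and the change was -0.22 ± 0.05 in C403A, -0.41 ± 0.05 in C406A and -0.51 ± 0.05 in wild type. RPO26, which encodes the subunit also called Rpb6, read 1188 and 1189 in C403A with MMS against 1479 and 1732 untreated, 1196 and 1295 in C406A with MMS against 1600 and 1510 untreated, and 1182 and 1111 in wild type with MMS against 1695 and 1661 untreated. Again the treatments did not overlap. Its mean change was -0.43 ± 0.05 (adjusted p = 6.07e-05). RPB5, the other shared subunit on the list, changed by -0.21 ± 0.03 (adjusted p = 0.000381), with medians of 1668 over MMS arrays and 1952 over untreated arrays. The change in RPB5 was -0.38 in wild type and -0.23 in C406A, and it did not pass in C403A.

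RPB9 encodes a small subunit known for transcript fidelity and for repair of transcribed strands. It read 646 and 608 in C403A with MMS against 708 and 723 untreated, 712 and 744 in C406A with MMS against 943 and 877 untreated, and 607 and 680 in wild type with MMS against 921 and 899.6 untreated. The MMS arrays were below the untreated ones within each strain, but untreated C403A overlapped with MMS-treated C406A. The mean change was -0.34 ± 0.04 (adjusted p = 0.000211). RPO21 encodes the largest subunit, with the catalytic site and the repeated C-terminal tail. It read 2632 and 2565 in C403A with MMS against 3086 and 2747 untreated, 2469 and 2163 in C406A with MMS against 2672 and 2647 untreated, and 2765 and 2886 in wild type with MMS against 3190 and 2652 untreated. In wild type the treatments overlapped, and the mean change of -0.14 ± 0.06 did not pass (adjusted p = 0.0672). RPB2, the second-largest subunit, fell by 0.10 and RPB7 by 0.14 on the log2 scale. RPB11 had a change of -0.19 ± 0.07 (adjusted p = 0.045), which rested on wild type (-0.48), where array 1 read 477 with MMS. RPB4, which forms the stalk of the enzyme with RPB7, was the 1 subunit gene that rose, by 0.20 ± 0.04 (adjusted p = 0.00314). RPB3, which pairs with RPB11, was at 0.14 ± 0.06 and did not pass (adjusted p = 0.101).

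**Figure D2:**
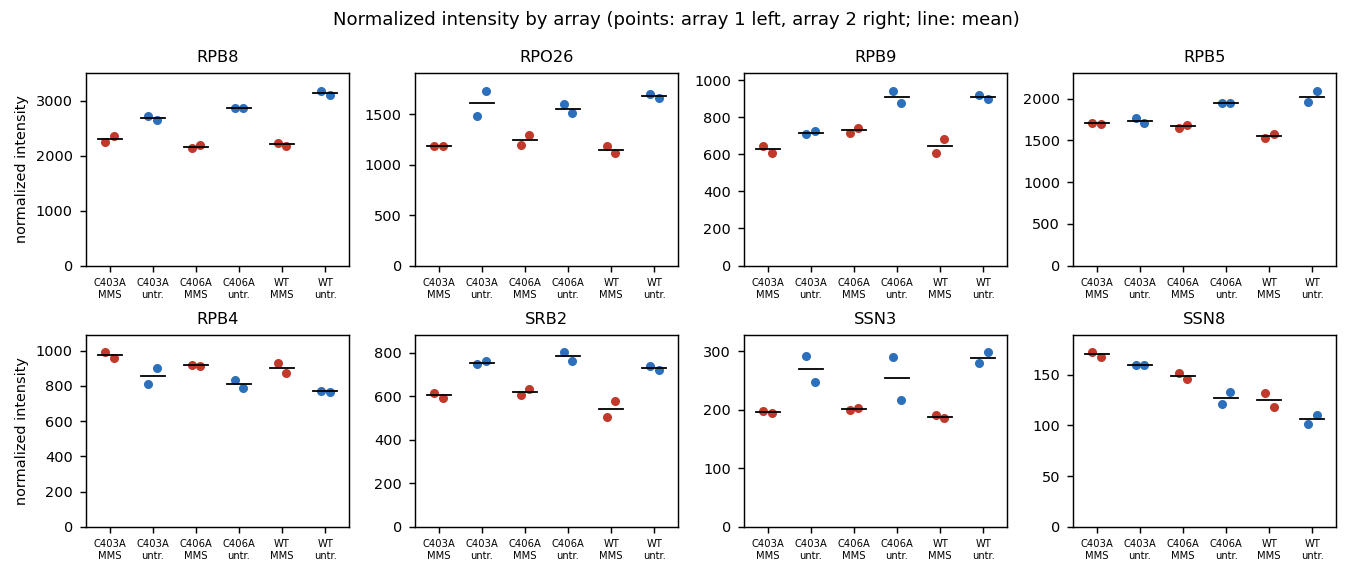
Normalized intensity of 8 genes on each array (points, 2 a group, with the group mean as a line), MMS in red and untreated in blue. RPB8, RPO26, SRB2 and SSN3 are lower on every MMS array than on every untreated array, and SSN8 is lower in wild type than in C403A under both conditions.

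Shared subunits that were not on the list fell too. RPB10 and RPC10 encode the remaining small subunits that polymerases I, II and III have in common. Both fell, RPB10 by 0.24 and RPC10 by 0.50 on the log2 scale (adjusted p = 0.000542 and 4.29e-05), in the same test over all genes. CAF40, tested beside them, is a subunit of the Ccr4-Not complex and not of a polymerase, and its mean change of -0.14 did not pass (adjusted p = 0.0566).

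Among the general factors, SPT15, which encodes TBP, fell most. It read 1067 and 1686 in C403A with MMS against 2086 and 1924 untreated, 1622 and 1688 in C406A with MMS against 1996 and 1963 untreated, and 1911 and 1812 in wild type with MMS against 2326 and 2124 untreated. All 6 MMS arrays were below all 6 untreated arrays, and array 1 of MMS-treated C403A stood apart from its partner. The mean change was -0.36 ± 0.09 (adjusted p = 0.0106), and without that array it was -0.25 (adjusted p = 0.00167). In C403A the change was -0.58 ± 0.16 (adjusted p = 0.0416), and without that array it was -0.25 and did not pass (adjusted p = 0.121). It was -0.26 in C406A and in wild type, where it did not pass.

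The platform also carries control probe sets for the 5′ part, the middle and the 3′ part of SPT15 and of SRB4, a subunit of the Mediator head, which were not used in the fit. The control intensities were placed on the quantile-normalized scale by interpolation. On array 1 of MMS-treated C403A the SPT15 controls read 1054, 1915 and 1524, and on its partner 1141, 2049 and 1615. The low reading of the gene probe set on that array was thus not seen on its controls. The mean MMS change of SPT15 was -0.14 by the 5′ control, -0.17 by the middle one and -0.20 by the 3′ one, the same direction as the gene probe set and a smaller size. On each of these controls, unlike on the gene probe set, MMS and untreated arrays overlapped. In C403A these controls changed by 0.01, -0.11 and -0.19. SRB4 read 431 and 474 in C403A with MMS against 362 and 405.6 untreated, 417 and 447 in C406A with MMS against 352 and 375 untreated, and 479 and 404 in wild type with MMS against 405 and 399 untreated. It rose by 0.21 ± 0.06 (adjusted p = 0.0193), with MMS arrays above untreated ones in both mutants and overlap by a single reading in wild type. Its controls changed by 0.17, 0.27 and 0.09, and on each of them MMS and untreated arrays overlapped. In wild type these controls changed by 0.01, 0.39 and -0.03, while in both mutants all of them changed upward. The 3′ control was also compared with the 5′ control in the values as deposited. Over the 12 arrays it was higher by 0.52 to 0.83 (log2) for SPT15 and by 2.49 to 3.64 for SRB4.

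**Figure D3:**
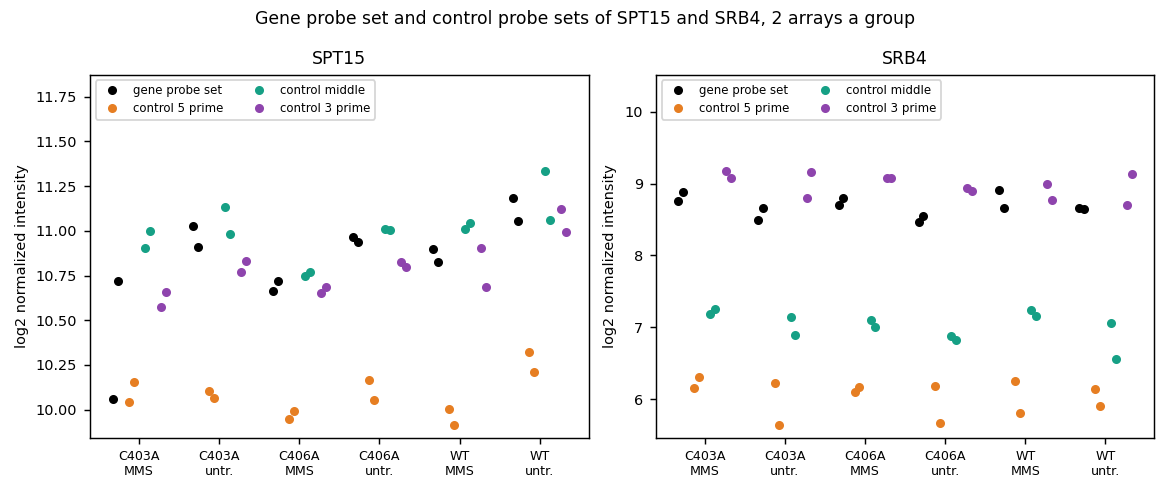
Log2 normalized intensity of the gene probe set and the 3 control probe sets of SPT15 (left) and SRB4 (right), 2 arrays a group. Array 1 of MMS-treated C403A, at 1067 for the SPT15 gene probe set before log2, has no counterpart among the SPT15 controls.

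TFG1, DST1 and TOA1 rose. TFG1, the large subunit of TFIIF, read 723 and 777 in C403A with MMS against 642 and 665 untreated, 742 and 731 in C406A with MMS against 620 and 650.0 untreated, and 738 and 694 in wild type with MMS against 634 and 618 untreated. No MMS array overlapped with an untreated one, and the mean change was 0.20 ± 0.04 (adjusted p = 0.00246). DST1 encodes TFIIS, which restarts stalled polymerase by cleaving the transcript. It read 687 and 729 in C403A with MMS against 603 and 573 untreated, 662 and 654 in C406A with MMS against 593 and 555 untreated, and 611 and 669 in wild type with MMS against 608 and 612 untreated. The rise of 0.18 ± 0.04 (adjusted p = 0.0075) was present in the mutants, 0.27 ± 0.07 in C403A, while the wild-type arrays overlapped. TOA1, the large TFIIA subunit, changed by 0.20 ± 0.06 (adjusted p = 0.0157), and by 0.38 ± 0.10 in C406A. TFA1 of TFIIE fell by 0.13, and SUA7, which encodes TFIIB, was at -0.03 ± 0.05 (adjusted p = 0.641).

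Most TAFs, 11 of 14, did not pass in the mean response. TAF8 read 457 and 438 in C403A with MMS against 507 and 511 untreated, 452 and 423 in C406A with MMS against 554 and 563 untreated, and 543 and 459 in wild type with MMS against 589 and 588 untreated. It was lower with MMS within every strain, with a mean change of -0.26 ± 0.05 (adjusted p = 0.00247). TAF12 read 320 and 315 in C403A with MMS against 278 and 233 untreated, 295 and 301 in C406A with MMS against 265 and 323 untreated, and 346 and 331 in wild type with MMS against 267 and 267 untreated. TAF12 overlapped in C406A and rose by 0.23 ± 0.07 on average (adjusted p = 0.0187; 0.0501 without array 1 of untreated C406A). TAF12 and TAF9, which rose by 0.21 ± 0.07 (adjusted p = 0.0275), are histone-fold proteins found in both TFIID and the SAGA coactivator. The TAF9 call was lost without any 1 of 9 arrays, and in C403A alone its change was 0.48 ± 0.12 (adjusted p = 0.0224). There TAF9 read 1613 and 1609 with MMS against 985 and 1353 untreated. Leaving out 1 array moved this change between 0.25 and 0.71.

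TAF4 passed in C406A, at -0.51 ± 0.16 (adjusted p = 0.0493), with 604 and 550 with MMS against 823 and 813 untreated. It read 707 and 594 in C403A with MMS against 773 and 626 untreated, and 556 and 755 in wild type with MMS against 594 and 713 untreated, so the treatments overlapped in those strains. The mean change of TAF4 was -0.20 and did not pass. TAF2 and TAF5 were among the 3 members with the smallest mean change. TAF2 read 416 and 442 in C403A with MMS against 483 and 458 untreated, 377 and 395 in C406A with MMS against 357 and 354 untreated, and 390.1 and 347 in wild type with MMS against 393 and 335 untreated, a change of 0.00 ± 0.06. TAF5, the WD-repeat scaffold of TFIID, read 688 and 733 in C403A with MMS against 659 and 633 untreated, 709 and 613 in C406A with MMS against 643 and 650.5 untreated, and 596 and 720 in wild type with MMS against 752 and 692 untreated, a change of 0.01 ± 0.06. For TAF2 the MMS arrays were below the untreated ones in C403A and above them in C406A.

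In the Mediator head, SRB2 fell in every strain. It read 617 and 594 in C403A with MMS against 746 and 763 untreated, 606 and 631 in C406A with MMS against 803 and 762 untreated, and 507 and 579 in wild type with MMS against 738 and 719 untreated. The treatments were fully separated, and the mean change was -0.36 ± 0.05 (adjusted p = 0.000165). ROX3 read 497 and 441 in C403A with MMS against 566 and 489 untreated, 454 and 451 in C406A with MMS against 587 and 536 untreated, and 461 and 503 in wild type with MMS against 584 and 514 untreated. It was lower within C406A and wild type and overlapped in C403A, with a mean change of -0.22 ± 0.06 (adjusted p = 0.0148). MED8, an essential head subunit, was at 0.53 ± 0.16 (adjusted p = 0.0189), the largest mean rise of the 58 genes at the 20th percentile floor. With the floor at the 40th percentile its mean change was 0.04 and did not pass (adjusted p = 0.641). Its readings lay near the floor in wild type and are given below with the mutants.

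In the middle, which holds the hinge of the complex, SOH1 and NUT1 rose. SOH1, a small conserved subunit, read 575 and 552 in C403A with MMS against 464 and 479 untreated, 536 and 523 in C406A with MMS against 485 and 469 untreated, and 459 and 502 in wild type with MMS against 455 and 465 untreated. NUT1 read 263 and 329 in C403A with MMS against 255 and 252 untreated, 266 and 252 in C406A with MMS against 225 and 195 untreated, and 306 and 272 in wild type with MMS against 248 and 225 untreated. Both were above the untreated arrays within both mutants, and NUT1 also in wild type, where SOH1 overlapped. The mean change was 0.16 ± 0.04 for SOH1 (adjusted p = 0.0132) and 0.27 ± 0.07 for NUT1 (adjusted p = 0.0139). SRB7, which pairs with MED7, fell by 0.14. RGR1, which joins the middle to the tail, fell by 0.12, with all MMS arrays below all untreated arrays, and lost its call without any 1 of 10 arrays.

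In the tail, which contacts activators, MED2 rose. It read 163 and 162 in C403A with MMS against 139.7 and 148 untreated, 160.4 and 162 in C406A with MMS against 117 and 108 untreated, and 169 and 155 in wild type with MMS against 150.3 and 108 untreated. MED2 was higher on every MMS array than on every untreated array, with a mean change of 0.35 ± 0.09 (adjusted p = 0.0084). It is a dim probe set: with the floor at the 40th percentile the change was 0.12. GAL11, the activator-binding tail subunit, read 590 and 601 in C403A with MMS against 670.0 and 587 untreated, 557 and 504 in C406A with MMS against 595 and 584 untreated, and 636 and 639 in wild type with MMS against 650.0 and 659 untreated. These differences were small and GAL11 did not pass (-0.09 ± 0.05, adjusted p = 0.151). PGD1, the third of the members with the smallest mean change, read 196 and 237 in C403A with MMS against 236 and 228 untreated, 198 and 191 in C406A with MMS against 195 and 211 untreated, and 224 and 207 in wild type with MMS against 208 and 182 untreated, a change of -0.01 ± 0.07.

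The kinase module split. SSN3, which encodes the Cdk8 kinase, read 198 and 194 in C403A with MMS against 292 and 247 untreated, 201 and 203 in C406A with MMS against 290.2 and 218 untreated, and 191 and 186 in wild type with MMS against 280 and 299 untreated. All MMS arrays were below all untreated arrays. The mean change of -0.46 ± 0.08 (adjusted p = 0.00114), 0.726 of the untreated level, was the largest fall among the 58 genes, and in wild type it was -0.62 ± 0.14 (adjusted p = 0.00777). SSN8 encodes cyclin C, the cyclin of this kinase. It read 172 and 168 in C403A with MMS against 159 and 159 untreated, 152 and 145 in C406A with MMS against 122 and 133 untreated, and 132 and 118 in wild type with MMS against 101 and 111 untreated. It was higher with MMS within every strain, by 0.19 ± 0.06 on average (adjusted p = 0.0345), a call lost without any 1 of 8 arrays. With the floor at the 40th percentile the change was 0.04.

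A ratio of 2 partner subunits on the same array does not depend on a factor that scales the array. The ratios here were taken after quantile normalization and flooring, which are not such a factor, so they can depend on the processing. For 13 pairs known to bind each other, the log2 ratio was compared between MMS and untreated arrays by a two-sided exact permutation test within strains, in which the smallest possible p is 0.00926, and adjusted over the 13 pairs. The ratio rose for 4 pairs: SSN8 over SSN3 by 0.65 (adjusted p = 0.0301), SRB5 over SRB2 by 0.46 (0.0401), RPB4 over RPB7 by 0.34 (0.0301) and TOA1 over TOA2 by 0.31 (0.0301). It fell for 2 pairs, TAF4 over TAF12 by 0.43 (0.0401) and TAF8 over TAF10 by 0.36 (0.0301). By strain, SRB5 over SRB2 changed by 0.60 in C403A, 0.64 in wild type and 0.12 in C406A, where the treatments overlapped. For TAF4 over TAF12 they overlapped in wild type. The pairs that passed are known partners: the stalk of the polymerase, TFIIA, 2 histone-fold pairs of TFIID, a head submodule and the kinase with its cyclin. The share of other gene pairs with a changed ratio was not tested, and 47.4% of all genes were called in the mean response. The count is therefore not shown to be particular to partner subunits. The ratio of the SSN8 to the SSN3 intensity ran from 0.636 to 0.869 on MMS arrays, with a median of 0.737, and from 0.362 to 0.645 on untreated arrays, with a median of 0.482. A single untreated reading reached into the MMS range. With the floor at the 40th percentile the mean change was 0.04 for SSN8 and -0.46 for SSN3, so the size of this ratio's change depended on the floor.

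The ratio of RPB3 to RPB11 changed by 0.33 (adjusted p = 0.0516), of which wild type gave 0.72, C406A 0.10 and C403A 0.16. TAF6 over TAF9 changed by -0.37 (0.0601) and TAF3 over TAF10 by -0.09 (0.0669). The TAF6 to TAF9 value came from C403A, at -1.03, against 0.02 in C406A and -0.09 in wild type. The other 4 pairs were between -0.02 and 0.06. The partner pairs were chosen from known structures with earlier results of these arrays in view.

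**Figure D4:**
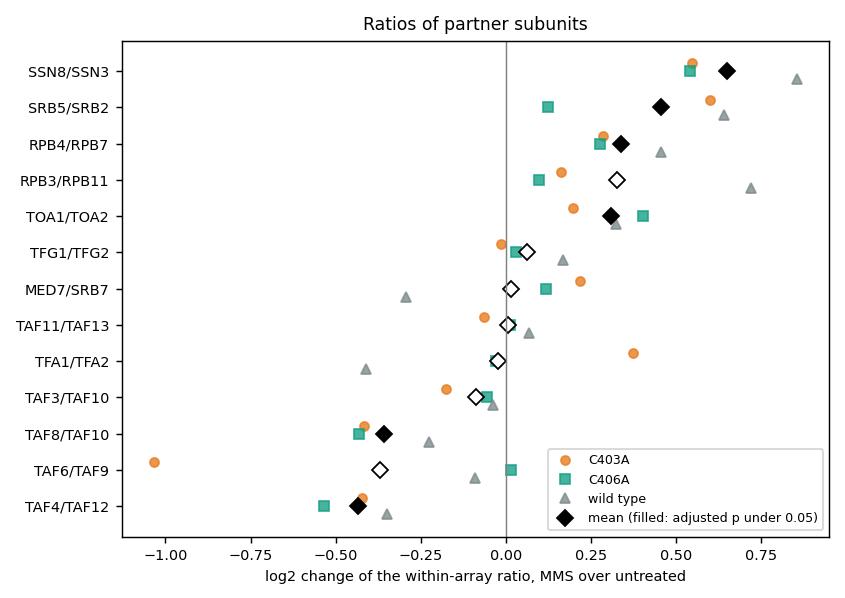
Log2 change of the within-array ratio of 13 pairs of partner subunits, MMS over untreated, in C403A (circles), C406A (squares), wild type (triangles) and on average (diamonds, filled where the adjusted exact permutation p is under 0.05). SSN8/SSN3 is furthest right at 0.65, and the C403A point of TAF6/TAF9 is furthest left at -1.03.

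Against wild type, a small share of these genes, and of all genes, passed in the C403A mutant. Without MMS 3 were higher and 3 lower, 10.3% of the 58, against 14.1% of all genes called (9.17% higher, 4.97% lower). With MMS 3 were higher and 1 lower, 6.9% of the 58, against 13.6% of all genes (7.47% higher, 6.09% lower). The comparisons share the wild-type arrays within each condition. SSN8, given above by array, was higher in C403A by 0.59 ± 0.11 without MMS (adjusted p = 0.00789) and by 0.45 ± 0.11 with MMS (adjusted p = 0.0261). The untreated call held without any 1 array, and the MMS call was lost without each of the 4 arrays compared. The untreated call depended on the floor, as the untreated wild-type readings of 101 and 111 lay below the 40th percentile floor of 148. With that floor the untreated difference was 0.102 and did not pass (adjusted p = 0.2002). The difference with MMS was then 0.198 and passed (adjusted p = 0.0251). In C406A the difference was 0.27 ± 0.11 without MMS and 0.25 ± 0.11 with MMS, neither of which passed (adjusted p = 0.25 and 0.225). Untreated C403A was also lower in RPB9 (-0.35 ± 0.08, adjusted p = 0.0176), RPB8 (-0.23 ± 0.05, adjusted p = 0.0147) and RPB5 (-0.22 ± 0.05, adjusted p = 0.0241), and higher in TAF2 (0.37 ± 0.10, adjusted p = 0.0362), calls that were each lost without at least 2 of the 4 arrays. With MMS, C403A was higher in TAF10 (0.42 ± 0.07, adjusted p = 0.00724) and RPB11 (0.46 ± 0.12, adjusted p = 0.0327) and lower in SIN4, a tail subunit (-0.42 ± 0.10, adjusted p = 0.0213), each also lost without at least 2 of the 4.

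In C406A, MED8 was the 1 gene of the 58 that passed against wild type without MMS, against 2.7% of all genes called. With MMS, limma called 0 of the 58, against 4.53% of all genes. There, 10 of the 58 and 1134 of all 5368 genes had an unadjusted p under 0.05. Between the mutants, averaged over both conditions, TAF2 was higher in C403A than in C406A (0.28 ± 0.07, adjusted p = 0.0372) and RPB9 lower (-0.28 ± 0.05, adjusted p = 0.015), against 11% of all genes called. The TAF2 call was lost without each of the 8 arrays compared (adjusted p up to 0.111), and the RPB9 call without 2 of them.

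MED8 read 148 and 134 in C403A with MMS against 122 and 119 untreated, 209 and 164 in C406A with MMS against 128 and 192 untreated, and 109 and 89.2 in wild type with MMS against 59.5 and 34.5 untreated. The last reading is the floor itself, so the untreated wild-type level is known only as a bound on that array. Untreated C403A was higher than untreated wild type by 1.41 ± 0.27 (adjusted p = 0.00893) and untreated C406A by 1.79 ± 0.27 (adjusted p = 0.00998). In wild type MED8 rose with MMS by 1.12 ± 0.27 (adjusted p = 0.0105). Without array 2 of untreated wild type these values were 1.02 (adjusted p = 0.051) for C403A and 0.73 (adjusted p = 0.0737) for the wild-type MMS response, and with the floor at the 40th percentile they were 0.00, with 0.19 for C406A. The C406A call was lost without array 2 of untreated C406A (adjusted p = 0.0879). With MMS the differences from wild type were 0.52 ± 0.27 in C403A and 0.91 ± 0.27 in C406A, and neither passed (adjusted p = 0.246 and 0.0937).

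In other genes a single array set the value, as was seen after the values were known. MED1 read 39.6 on array 2 of untreated wild type, against 187 to 233 on the other 11 arrays, and its wild-type MMS change was 1.15 with that array and -0.13 without it. TAF6 read 309 on array 1 of MMS-treated C403A, against 680 to 824 on the other 11, and its C403A change was -0.55 with that array and 0.12 without it. Neither passed in the main comparison (adjusted p = 0.173 and 0.288). These are the 2 arrays on which SPT15 and MED8 also read low.

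**Figure D5:**
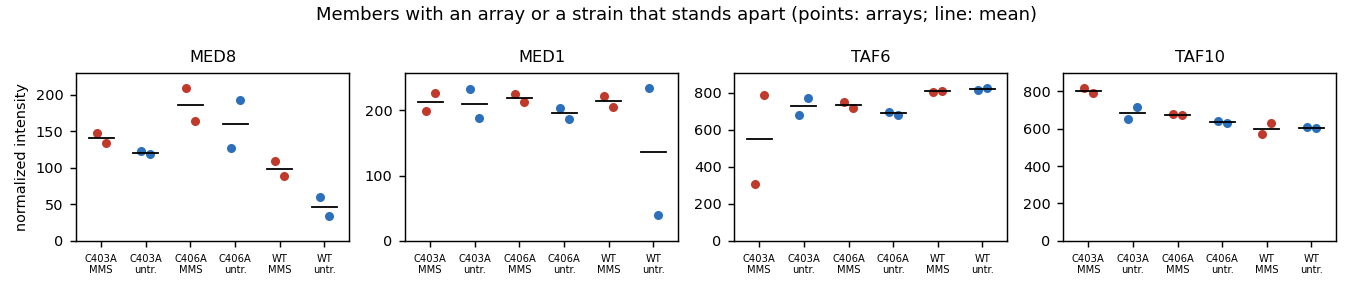
Normalized intensity of MED8, MED1, TAF6 and TAF10 on each array (points, 2 a group, with the group mean as a line), MMS in red and untreated in blue. MED8 is lowest in untreated wild type, where 1 array is at the floor of 34.5. MED1 and TAF6 each have 1 array far below the rest, at 39.6 and 309.

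Whether MMS acted differently in the mutants was tested as the difference of MMS responses, mutant minus wild type. Limma called 0 of the 58 genes for C403A, against 0.987% of all genes. There, 8 of the 58 and 871 of all 5368 genes had an unadjusted p under 0.05. For C406A limma called 0, against 0% of all genes, and 1 of the 58 and 451 of all genes had such a p. The smallest adjusted p among the 58 was that of RPB5 for C403A, a difference of 0.36 ± 0.08 (adjusted p = 0.0626, 95% interval 0.19 to 0.52), followed by RPB8 at 0.29 ± 0.07 (adjusted p = 0.0852). For both genes the change with MMS was smaller in C403A than in wild type, and untreated C403A was already lower than untreated wild type. The calls that differ between strains above are therefore not shown to differ between them.

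Genes that act on this machinery were tested beside it. Of the 6 regulators of TBP tested, 3 fell and 0 rose with MMS, so that 50% were called, against 47.4% of all genes (25.2% higher, 22.2% lower). MOT1, the ATPase that removes TBP from DNA, had 206 and 225 in C403A with MMS against 408 and 359 untreated, 298 and 251 in C406A with MMS against 479 and 494 untreated, and 338 and 372 in wild type with MMS against 560.0 and 567 untreated. The mean change was -0.78 ± 0.06 (adjusted p = 1.16e-05), larger in size than that of any of the 58 genes. BUR6, a subunit of the repressor NC2 that binds TBP, read 390 and 366 in C403A with MMS against 559 and 507 untreated, 489 and 545 in C406A with MMS against 645 and 648 untreated, and 617 and 623 in wild type with MMS against 826 and 872 untreated, a mean change of -0.42 ± 0.05 (adjusted p = 7.84e-05). Both genes were lowest in MMS-treated C403A.

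Of these 6 regulators, 3 were lower and 0 higher in C403A than in wild type, both without MMS (against 4.97% of all genes lower and 9.17% higher) and with it (against 6.09% lower and 7.47% higher). BUR6 was lower in C403A by 0.67 ± 0.08 without MMS (adjusted p = 0.00135) and by 0.71 ± 0.08 with MMS (adjusted p = 0.000973). BDF2, a bromodomain factor linked to TFIID, was at -0.54 ± 0.10 (adjusted p = 0.00789) and -0.69 ± 0.10 (adjusted p = 0.00278). MOT1 was at -0.56 ± 0.11 (adjusted p = 0.0103) and -0.72 ± 0.11 (adjusted p = 0.00352). Without MMS the MOT1 call was lost without 2 of the 4 arrays and the BDF2 call without 1. In C406A, BUR6 passed without MMS (-0.39 ± 0.08, adjusted p = 0.0407), and BDF2 and its paralog BDF1 with MMS (-0.49 ± 0.10 each, adjusted p = 0.0282 for BDF2 and 0.0312 for BDF1), calls that were each lost without 3 or 4 of the 4 arrays.

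Of 13 SAGA genes outside the list, 1 rose and 2 fell with MMS, 23.1% against the 47.4% called over all genes. SPT3, which hands TBP to promoters, was at 0.30 ± 0.08 (adjusted p = 0.00977). TRA1, the activator-binding scaffold, was at -0.46 ± 0.05 (adjusted p = 3.71e-05) and SGF29 at -0.30 ± 0.09 (adjusted p = 0.0217), a call lost without array 1 of MMS-treated C403A or array 1 of untreated C406A (adjusted p up to 0.0608). Of 20 genes of elongation and of the polymerase's tail, 4 rose and 3 fell, 35% against the same 47.4%. POB3 and SPT16, the subunits of the histone chaperone FACT, rose by 0.48 ± 0.05 (adjusted p = 3.33e-05) and 0.17 ± 0.03 (adjusted p = 0.000803). SGV1 and CTK2, a kinase and a cyclin of tail phosphorylation, fell by 0.25 and 0.35 (adjusted p = 0.00923 and 0.0159). Of 7 genes of polymerase assembly and nuclear import, 2 rose and 2 fell, 57.1% against 47.4%. NPA3, a GTPase of assembly and import, was at 0.37 ± 0.06 (adjusted p = 0.0012) and IWR1, the import adaptor, at 1.07 ± 0.25 (adjusted p = 0.00618), with 1 untreated C403A array at the floor. IWR1 is a dim probe set: it read 34.5 to 111 on untreated arrays, all below the 40th percentile floor of 148. On MMS arrays it read 129 to 185, on both sides of that floor. RTP1 was at -0.22 ± 0.05 (adjusted p = 0.00675) and RBA50 at -0.21 ± 0.06 (adjusted p = 0.0187), a call lost without array 1 of MMS-treated wild type (adjusted p = 0.0515).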

How the data were processed

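Gene expression in 12 yeast RNA samples, 6 groups of 2, was measured on 1-colour Affymetrix arrays. The deposited values are the authors' intensity of each of 9335 probe sets, per the file headers; they are linear, and 8.95% of them lay below 0. How probes were summarized and arrays scaled is left unsaid by the sources used here. The table held 0 columns of other samples.

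Intensities were quantile-normalized over the probe sets other than 60 controls, floored at the 20th percentile (34.5) and log2-transformed. Probe sets with 1 gene in the platform's name table were used (6504; 328 had several genes and 2503 none), the brightest per gene. Of 5656 genes, 288 above the floor on fewer than 2 arrays were left out. In limma 3.58.1 (R 4.3.3), lmFit estimated 6 group means from the 12 arrays, leaving 6 residual degrees of freedom. Variances were moderated by eBayes with a trend, at a prior of 3.53 degrees of freedom, and p-values were adjusted by Benjamini and Hochberg's method over 5368 genes. Plots used Python 3.11.15 and matplotlib 3.10.9. The fit was tested on simulated data.

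The genes, lists, partner pairs and tests were chosen with earlier results of these data known. Values on every array are given for genes that passed with a log2 change of at least 0.5 either way in any comparison, the 2 genes of each role with the smallest p in the mean MMS response, the 3 with the smallest mean change, and RPO21, SPT15 and SRB4. Of other lists, up to 2 genes each way with the smallest p are named. MED1, TAF6, and MOT1 against wild type, were added after their values were seen. Alternatives were median scaling, values as deposited, scaling to 9 hybridization controls (added after seeing the data), no filter, a floor at the 40th percentile, averaging the probe sets of a gene, fits of the compared groups alone, and leaving out each array. Promoter and protein sequences were not used here.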

Additional observations from a re-analysis of the deposited data

How the results depend on the processing

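No paired analysis was possible because the labels number no replicates, so arrays of different groups share no number. All comparisons are relative to an array's overall level, and that choice moved most calls. Relative to it, the median of all genes in the mean MMS response shifted by 0.31 (log2) in the values as deposited and by 0.01 with the hybridization controls, where it was -0.12 in C403A, 0.25 in C406A and -0.09 in wild type. Higher calls made up 53.2% of all calls in the mean response, 96.5% in the values as deposited and 56.6% with the controls. As deposited, the mean response called 26 of the 58 genes higher and 0 lower. With the controls it called 8, of which MED2 and MED8 were higher and RPB8, RPB9, RPO26, SPT15, SRB2 and SSN3 lower. With median scaling 23 of the 27 calls were kept, with the 40th percentile floor or no filter 25, and with the mean of probe sets 27.

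For the other comparisons the count of called genes among the 58 changed as follows. As deposited it was 1 for the C403A MMS response (7 in the report), 2 for wild type (11), 1 for untreated C403A against wild type (6), 0 with MMS (4) and 0 between the mutants (2). With the hybridization controls it was 0 for the C403A MMS response, 2 for C406A (9), 7 for wild type, 2 for untreated C403A against wild type and 2 with MMS, and 0 between the mutants. With only the compared groups fitted, it was 0 for C403A, 6 for wild type, 0 for C403A against wild type under either condition (0 untreated and 0 with MMS), and 0 for untreated C406A against wild type (1). This fit has fewer samples, and it could not be run apart for the mean response, which uses all groups. With the 40th percentile floor it was 0 for untreated C406A against wild type and 1 for the C403A difference of responses (0), and with no filter 2 for that difference and 4 between the mutants. The cause of the scaling effects was not tested.

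Leaving out 1 array gave 0 to 6 calls for C403A, 2 to 5 for C406A, 7 to 12 for wild type and 17 to 30 for the mean response. Against untreated wild type it gave 2 to 5 for C403A and 0 to 2 for C406A, against MMS-treated wild type 0 to 4 and 0 to 2, for either difference of responses 0 to 1, and between the mutants 0 to 3. Where a group is left with 1 array, that array is assumed to vary like the others.

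Over all genes, calls moved by over 1.5 times under the settings that follow. As deposited they were 367 for the C403A MMS response (835 in the main fit), 795 for wild type (1770), 97 for untreated C403A (759) and 15 for untreated C406A (145) against wild type, 78 for C403A (728) and 37 for C406A (243) with MMS, 2 for the C403A (53) and 3 for the C406A (0) difference of responses, and 95 between the mutants (589). With the controls they were 211, 821 and, for the mean response (2546), 1586, then 334 and 74 without MMS, 46 for C406A with MMS, 2, 3 and 258. With only the compared groups they were 106 for C403A, 5 and 0 without MMS, 210 and 0 with MMS, and 1 for each difference. Median scaling gave 136 for C406A with MMS, and no filter 6 for the C406A difference. Leaving out 1 array gave 330 to 739 for the C403A MMS response, 678 to 944 for C406A (1286) and 1171 to 1403 for wild type. Without MMS it gave 365 to 798 for C403A and 21 to 88 for C406A, with MMS 316 to 441 and 57 to 282, for the differences of responses 2 to 91 and 0 to 54, and between the mutants 163 to 616. The mean response, at 2208 to 2569, moved by less than 1.5 times.

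As deposited, these falls turned positive in the mean response: RPB2 at 0.19, RPB5 at 0.084, RPB7 at 0.18, RPB9 at 0.0097, RPB11 at 0.16, TFA1 at 0.21, TAF8 at 0.10, SRB7 at 0.21, ROX3 at 0.14, RGR1 at 0.24, RPB10 at 0.034, SGF29 at 0.030, SGV1 at 0.11, CTK2 at 0.012, RTP1 at 0.15 and RBA50 at 0.16. So did values that had not passed: RPO21 at 0.12, SUA7 at 0.30, GAL11 at 0.27, TAF4 at 0.16, TAF6 at 0.18 and PGD1 at 0.32. In C403A RPB8 was then at 0.013 and SRB2 at 0.0081. In C406A RPB5 was at 0.18, RPB9 at 0.15, RPO26 at 0.14, TAF8 at 0.13, SRB2 at 0.12 and SPT15 at 0.15, and in wild type RPB7 was at 0.014. With the controls PGD1 was at 0.014 and SSN8 in untreated C406A against wild type at -0.080. With the 40th percentile floor the C406A difference of MED8 responses was 0.13, against -0.88.

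Single arrays turned the sign of these values, none of them called: TAF6 in C403A (-1.23 to 0.12) and on average (-0.38 to 0.067), MED1 in wild type (-0.13 to 2.43) and in untreated C403A (-0.16 to 2.40) and C406A (-0.26 to 2.30) against wild type, RPB9 in untreated C406A against wild type (-0.054 to 0.050), and in the mean response TAF2 (-0.037 to 0.040), TAF5 (-0.037 to 0.054) and PGD1 (-0.052 to 0.039). The ratios of TFA1 to TFA2 (-0.075 to 0.030), TAF11 to TAF13 (-0.036 to 0.049) and MED7 to SRB7 (-0.082 to 0.11) did so too. The 2 arrays a group, and dim probe sets such as MED8, MED2 and SSN8, limit what can be shown.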
